A study of Homo sapiens with 4 samples.

Results

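This account covers the cassette exons of 10 genes that encode SR proteins or their close relatives, namely SRSF2, SRSF3, SRSF4, SRSF5, SRSF6, SRSF7, SRSF10, SRSF11, TRA2A and TRA2B. An event was taken when its skipped exon, or both of its flanking exons, had the coordinates of a GENCODE release 29 exon of one of these genes on the same strand. The rule found 31 events with 25 different skipped exons, all matched by the skipped exon itself, among 39120 skipped exons in all. They lay in 9 of the 10 genes, and SRSF5 had no event. Some of the 25 are longer and shorter forms of one exon, so they occupy 20 separate places in the genome. The data came from MDA-LM2 cells, a lung-metastatic derivative of the human breast cancer line MDA-MB-231. One group of 2 samples was transfected with an RNA called the SSE mimetic and the other, also of 2 samples, with a scrambled oligo, in both cases by lipofection; they are called mimetic and control cells below. The deposited tables give 1 value per exon and group, so no value per sample and no replicate spread can be shown.

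SR proteins bind RNA through RNA recognition motifs and contact the splicing machinery through a domain rich in arginine and serine. Most of their genes carry a so-called poison exon, an alternative exon in a very conserved stretch of sequence that brings in a premature stop codon. Transcripts that keep the exon are degraded by nonsense-mediated decay, and because SR proteins promote inclusion of such exons in their own and each other's transcripts, the exons serve as a brake on SR protein level. Decay removes part of the included product, so the inclusion seen in total RNA is lower than the inclusion made by splicing.

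Of the 25 exons, 16 were found only in transcripts annotated as decay targets or as noncoding and are called decay or noncoding exons below. Decay transcripts held 13 of the 16, and the other 3 were in noncoding transcripts only. The remaining 9 belonged to protein-coding transcripts, 7 of them with coding sequence and 2 in untranslated regions. Of the 7 coding exons, 6 had a length divisible by 3, and of the 16 decay or noncoding exons 6 did not.

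The sequences below show how the exons end the frame. Each runs from the first base of the exon to the stop codon of the annotated decay transcript, which is in capitals, and was read from the GENCODE transcripts (hg38). The SRSF6 stretch is chr20:43459153-43459304 on the plus strand, that of SRSF3 is chr6:36599821-36599854 on the plus strand, and that of SRSF4 is chr1:29160018-29160058 on the minus strand. Those of SRSF7 and TRA2B are chr2:38749319-38749346 and chr3:185931772-185931852, both on the minus strand.
SRSF6: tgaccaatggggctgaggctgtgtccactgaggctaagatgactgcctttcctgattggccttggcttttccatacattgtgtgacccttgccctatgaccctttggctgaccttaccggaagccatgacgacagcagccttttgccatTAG
SRSF3: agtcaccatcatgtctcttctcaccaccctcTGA
SRSF4: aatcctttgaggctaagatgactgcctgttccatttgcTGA
SRSF7: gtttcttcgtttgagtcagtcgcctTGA
TRA2B: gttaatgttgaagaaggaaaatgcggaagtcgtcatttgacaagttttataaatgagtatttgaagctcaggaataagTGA

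The stop began at base 26 of 449 in the SRSF7 exon, at base 32 of 456 in SRSF3 and at base 39 of 195 in SRSF4. It began later in TRA2B (base 79 of 276) and SRSF6 (base 150 of 268). The shorter SRSF4 form was chosen for printing after its values were seen. The longer form, which has 228 nt and slightly more reads, is annotated in a decay transcript whose stop lies before the exon, and so is the exon of SRSF2. In SRSF2 the decay transcript ends its coding part at the same base, 76736164 on chromosome 17, as 3 of the 5 annotated coding transcripts, so there the exon follows a normal stop and lies in the 3′ untranslated region. The exons of SRSF4 and SRSF6 shared the run tgaggctaagatgactgcct of 20 nt, which starts at base 8 of the shorter SRSF4 form and base 29 of the SRSF6 exon. It was the longest run shared by decay or noncoding exons of different genes among 108 pairs, and the next longest between different exons had 15 nt.

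**Figure D1:**
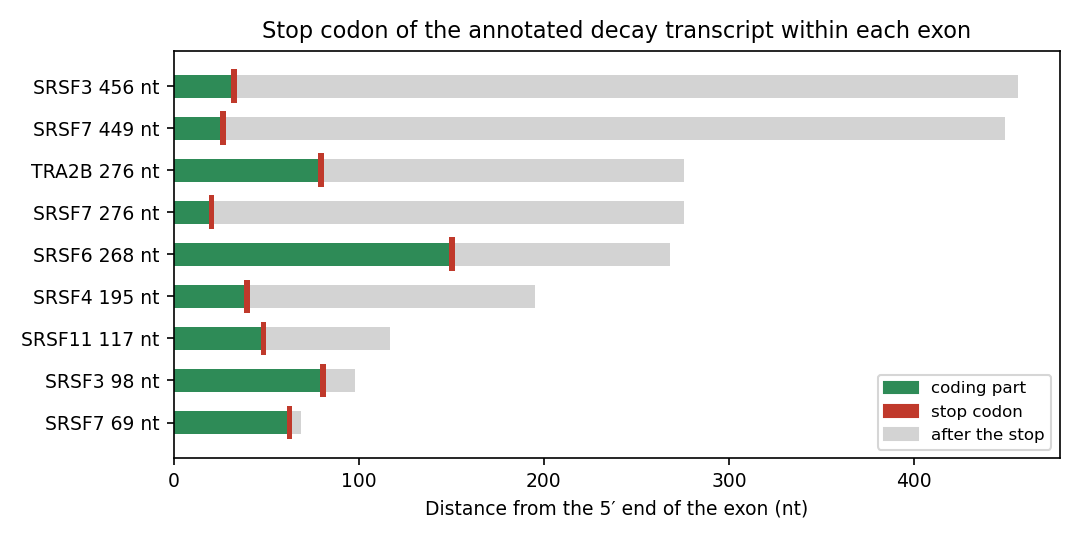
Decay exons of the SR genes drawn to scale, with distance from the 5′ end of the exon in nt on the x axis, the coding part in green, the stop codon of the annotated decay transcript in red and the rest of the exon in grey. The stop lies near the start of the long SRSF3 and SRSF7 exons and past the middle of the SRSF6 exon.

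The tables report percent spliced in (Ψ), the estimated fraction of transcripts that keep the exon, with a 95% credible interval. They also count reads that fit only the inclusion form (inclusion reads), only the skipping form (skipping reads), both forms (shared reads) or neither. Inclusion plus skipping reads are the isoform-specific reads, and an exon was tested when each group had at least 10 of them. A call needed a difference in Ψ of 0.1 or more together with a Bayes factor of 10 or more from the authors' program, which weighs the presence of a difference against its absence. Over the 45977 events in both groups, the control group had 4.73 times as many isoform-specific reads as the mimetic group, and reads that fit neither form made up 88.8% of its reads against 95.3%. The 25 SR gene exons had 613 isoform-specific reads in mimetic cells and 3363 in control cells. As a check of the cell line, all 12 markers of MDA-MB-231 that had an event held at least 10 reads fitting an isoform in each group, with a median over genes of 160.5 in mimetic and 805 in control cells for the best event. The medians were 15 and 31 for 7 luminal markers, 16 and 15 for 4 leukocyte markers, and 16 and 28 for 5 stromal or endothelial markers, none of which stood at 0. In each group 6 of the luminal and 3 of the leukocyte markers also held at least 10 such reads. So did 4 of the stromal or endothelial markers in mimetic cells and 5 in control cells. The limit of 10 reads alone therefore does not separate the lists.

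The decay exon of SRSF6 was more included in mimetic cells, and it was the 1 exon called among the 16 SR gene exons tested. No tested exon of SRSF2, SRSF3, SRSF4, SRSF7, SRSF11, TRA2A or TRA2B was called in either direction, and SRSF10 had no exon with enough reads. Over all 8228 tested exons 3.99% were called (3.10% higher and 0.887% lower in mimetic cells), so 1 of 16 is near the background share. In the class of decay or noncoding exons over the whole series, 7.00% of 1956 tested exons were called, against 1 of 11 in the SR genes.

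SRSF6 encodes a classical SR protein with a pair of RNA recognition motifs. Its decay exon (chromosome 20, 43459153 to 43459420, plus strand) lies between introns of 643 and 350 nt and was annotated in 1 decay transcript. Ψ was 0.34 (0.22 to 0.48) in mimetic cells and 0.14 (0.11 to 0.17) in control cells. The intervals did not meet, and the authors' deposited table gives a Bayes factor of 12.48, just past the limit of 10. Credible intervals were apart for 1 of the 16 SR gene exons, this one, and for 5.87% of all tested exons.

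The reads of SRSF6 gave a less distinct picture than Ψ. There were 31 inclusion, 6 skipping and 55 shared reads in mimetic cells, and 86, 36 and 397 in control cells. Inclusion reads made up a share of 0.838 (95% Clopper-Pearson interval 0.680 to 0.938) and 0.705 (0.616 to 0.784) of the isoform-specific reads, and these intervals overlapped. Fisher's exact test on these reads, two-sided and adjusted over all tested exons, gave p = 0.137 before and p = 1 after adjustment; it compares the pooled libraries and not the treatments. Shared reads per inclusion read were 1.77 and 4.62. A long exon collects more inclusion reads per molecule than a single skipping junction does, so these shares are not on the scale of Ψ.

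The exon of SRSF6 was also compared with the introns beside it, since a read from unspliced RNA inside the exon counts as an inclusion read. In mimetic cells there were 11.6 inclusion reads per 100 nt of exon and 10.7 reads fitting neither form per 100 nt of flanking intron. In control cells these were 32.1 and 46.8. The exon was therefore about as densely read as its introns in the first group and less densely in the second. Reads fitting neither form can include reads spliced to exons outside the event, so the intron figure can exceed the density of unspliced RNA. When this density was subtracted in a 2-isoform model, 2 inclusion reads were left in mimetic cells and 0 in control cells. Ψ became 0.0628 and 0.00311, a difference of 0.0597 that was not called. The control value is near the lowest that the model can give.

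SRSF4 encodes another classical SR protein, close to SRSF6 in sequence. Its decay exon has 2 forms that share one end on chromosome 1 (29159864 to 29160091 and 29159864 to 29160058, minus strand) and share nearly all their reads. The longer form had a Ψ of 0.23 (0.12 to 0.40) in mimetic cells and 0.10 (0.06 to 0.14) in control cells. The shorter form had 0.26 (0.11 to 0.45) and 0.10 (0.06 to 0.15). For both forms the value was higher in mimetic cells and the intervals overlapped.

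The Bayes factors of the SRSF4 forms in the authors' deposited table were 0.87 and 1.23, so neither was called. The longer form had 9 inclusion and 5 skipping reads in mimetic cells against 19 and 49 in control cells. Its inclusion share was thus 0.643 (0.351 to 0.872) against 0.279 (0.177 to 0.401), with Fisher's exact p = 0.0136, or 0.404 after adjustment over all tested exons. The 2-isoform model put the 95% interval of the difference in Ψ at -0.005 to 0.29 for the longer form and 0.005 to 0.335 for the shorter one. Inclusion reads per 100 nt of the longer form were 3.95 and 8.33, below the 8.03 and 25.9 reads per 100 nt of intron in the mimetic and control groups.

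SRSF2 encodes an SR protein that takes part in splice site recognition at many exons. The exon in its 3′ untranslated region (chromosome 17, 76735772 to 76735875, minus strand, 104 nt) had a Ψ of 0.29 (0.13 to 0.50) in mimetic cells and 0.43 (0.35 to 0.51) in control cells. The value was lower in mimetic cells, the intervals overlapped and the Bayes factor was 0.65. Inclusion and skipping reads numbered 8 and 5 against 101 and 44, so the group with fewer reads rested on 13. The model interval of the difference ran from -0.325 to 0.06. MFSD11 and a further annotated gene lie on the other strand over this exon, and whether the reads were assigned by strand is not given in the sources used here. After subtraction of the intron density 0 inclusion reads were left in mimetic cells and 1 in control cells, with a Ψ of 0.0938 and 0.0272. The difference of 0.0667 was not called, and with so few inclusion reads its sign cannot be read as a direction.

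SRSF3 encodes the smallest classical SR protein, and its long decay exon (chromosome 6, 36599821 to 36600276, plus strand, 456 nt) is a textbook case of autoregulation. Ψ was 0.14 (0.10 to 0.19) in mimetic cells and 0.10 (0.08 to 0.11) in control cells. Inclusion and skipping reads numbered 57 and 7 against 250 and 34. The inclusion shares of 0.891 (0.788 to 0.955) and 0.880 (0.837 to 0.916) lay close together, and the model interval of the difference in Ψ was 0 to 0.1. This was among the better read SR gene exons, and no difference above that size was within the interval. A second decay exon of SRSF3, of 98 nt at 36598429 to 36598526, was nearly always skipped, with a Ψ of 0.01 (0.00 to 0.02) and 0.00 (0.00 to 0.01).

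SRSF7 encodes an SR protein with a zinc knuckle that also takes part in mRNA export. Its decay exon has a long and a short form on chromosome 2 (38748898 to 38749346 and 38748898 to 38749173, minus strand), which share their skipping reads. The long form had a Ψ of 0.08 (0.05 to 0.13) in mimetic cells and 0.09 (0.07 to 0.11) in control cells. The short form had 0.07 (0.03 to 0.11) and 0.05 (0.03 to 0.07). Both forms were at the same low level in the 2 groups.

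In SRSF7 the model interval of the difference was -0.05 to 0.035 for the long form and -0.02 to 0.07 for the short form, the narrowest intervals among the exons shown here with a Ψ above 0.02. The long form had 18 inclusion and 38 skipping reads against 104 and 148, and its Bayes factor was 0.07. Its introns were densely covered, with 27.2 and 158 reads fitting neither form per 100 nt, against 4.01 and 23.2 inclusion reads per 100 nt of exon. Another decay exon, of 69 nt at 38747062 to 38747130 had no inclusion read. With 0 of 86 isoform-specific reads in the control group, an inclusion share of up to 3.49% is allowed there, and with 0 of 4 in the mimetic group the exon could not be judged.

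**Figure D2:**
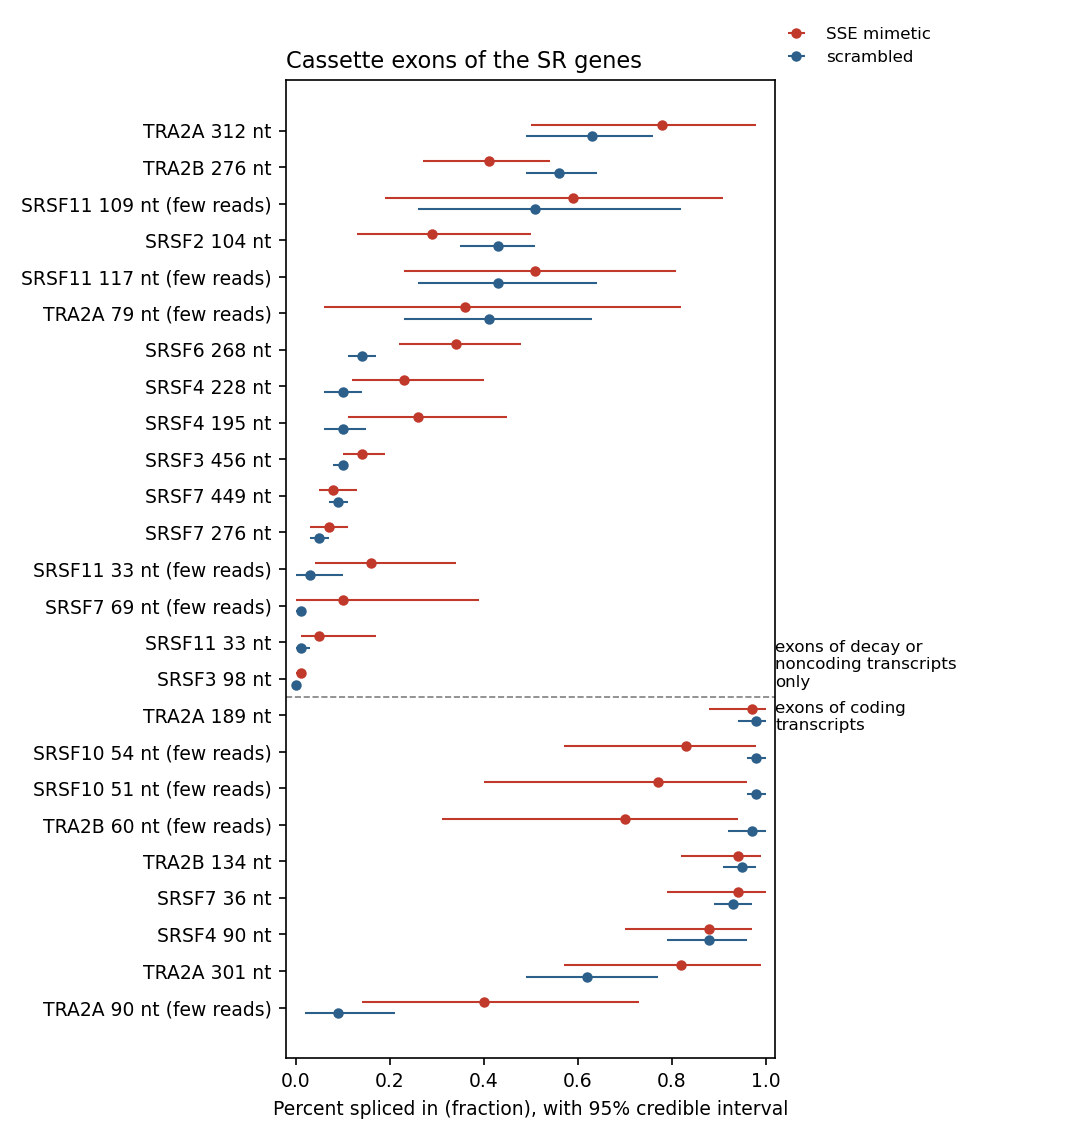
Ψ of the 25 skipped exons (x axis, fraction) with the authors' 95% credible interval as bars, SSE mimetic in red and scrambled in blue, for the event of each exon with the most isoform-specific reads; "few reads" marks exons under 10 such reads in a group. The SRSF6 exon of 268 nt is the 1 exon whose intervals are apart, at 0.34 against 0.14, among those with enough reads.

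TRA2A and TRA2B encode a pair of closely related SR-like proteins, the human counterparts of the fly sex determination factor Transformer-2. They bind GAA-rich RNA, and each gene has a GAA-rich exon that TRA2 proteins themselves activate. The exon of TRA2B (chromosome 3, 185931577 to 185931852, minus strand, 276 nt) was annotated in 1 decay transcript and 2 other noncoding ones, while the coding transcript TRA2B-202 has a shorter exon that begins at the same base. Its GC content was 32.6%, and it held 10.1 GAA triplets per 100 nt. The median of 1229 tested exons of similar length (within 25%) was 2.34. The exact letters GAAGAA, searched on the transcript strand only, occurred in the exons of TRA2B, TRA2A and SRSF7 and not in the best-covered decay or noncoding exons of SRSF2, SRSF3, SRSF4, SRSF6 and SRSF11. Of the tested exons with a length like that of the TRA2B exon, 23.4% held them, and of those like the TRA2A exon 24.5%. Of those like the SRSF7 exon of 449 nt, 33.15% held them. That exon had 1.559 GAA triplets per 100 nt, below the median of 2.154 for tested exons of similar length.

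The TRA2B exon was kept in a large part of the transcripts and was lower in mimetic cells, without a call. Ψ was 0.41 (0.27 to 0.54) in mimetic cells and 0.56 (0.49 to 0.64) in control cells, with a Bayes factor of 1.21. There were 30 inclusion and 15 skipping reads against 200 and 45. The inclusion share was 0.667 (0.510 to 0.800) against 0.816 (0.762 to 0.863), with Fisher's exact p = 0.0283, or 0.639 after adjustment over all tested exons. The model interval of the difference was -0.305 to 0.

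In the control group the TRA2B exon had the highest read density relative to its introns among the 11 tested decay or noncoding exons. It had 72.5 inclusion reads per 100 nt there and 28.7 reads fitting neither form per 100 nt of intron, a ratio of 2.52. With the SSE mimetic the figures were 10.9 and 8.80, a ratio of 1.23. After subtraction of this density, 6 and 121 inclusion reads were left and Ψ became 0.194 and 0.507. The difference of -0.313 was then called, with a recomputed Bayes factor of 54.1.

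The exon of TRA2A corresponding in place and composition (chromosome 7, minus strand) appeared as a noncoding form of 312 nt, 23522121 to 23522432, and as a form of 301 nt that belongs to coding transcripts. It held 10.3 GAA triplets per 100 nt. The longer form had a Ψ of 0.78 (0.50 to 0.98) in mimetic cells and 0.63 (0.49 to 0.76) in control cells, and the form of 301 nt had 0.82 (0.57 to 0.99) and 0.62 (0.49 to 0.77). Both were higher in mimetic cells, with overlapping intervals and Bayes factors of 0.69 and 1.03. Inclusion reads of the longer form numbered 28 and 92, and skipping reads 0 and 4.

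Ψ of the TRA2A exon depended on the upstream exon that defines the event. With the 90-nt exon at 23531181 to 23531270 in place of an upstream exon of 253 nt, Ψ of the 312-nt form was 0.54 (0.32 to 0.80) and 0.42 (0.30 to 0.54), and neither group had a skipping read. In each group this shift was larger than the difference between the groups. Without skipping reads, Ψ rests on inclusion and shared reads. A decay form of 79 nt, 23522354 to 23522432, had 0.36 (0.06 to 0.82) and 0.41 (0.23 to 0.63) on 2 and 20 isoform-specific reads. With the 90-nt upstream exon the direction turned, to 0.29 (0.06 to 0.64) against 0.03 (0.00 to 0.09), on 3 inclusion reads against 0 and with no skipping read. The Bayes factor was 1.74 and the model interval of that difference 0.05 to 0.675.

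SRSF11 encodes an SR-related protein. It had 4 decay or noncoding exons, of which 1 had enough reads. That exon, of 33 nt on chromosome 1 (70247117 to 70247149, plus strand), was nearly always skipped, with a Ψ of 0.05 (0.01 to 0.17) and 0.01 (0.00 to 0.03). It had 0 of 15 inclusion reads in mimetic cells, which allows a share of up to 20%, and 3 of 214 in control cells. The SRSF11 exons of 109 nt (70231095 to 70231203) and 117 nt (70231859 to 70231975) lie in decay transcripts. Their Ψ was 0.59 (0.19 to 0.91) against 0.51 (0.26 to 0.82) and 0.51 (0.23 to 0.81) against 0.43 (0.26 to 0.64), on 3 and 8 isoform-specific reads in mimetic cells. With other flanking exons the direction turned, to 0.15 (0.01 to 0.43) against 0.21 (0.08 to 0.38) for the 109-nt exon and 0.77 (0.49 to 0.99) against 0.86 (0.67 to 0.99) for the 117-nt exon. The intervals of the groups overlapped in all 4 events, so no difference was detectable at this depth.

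**Figure D3:**
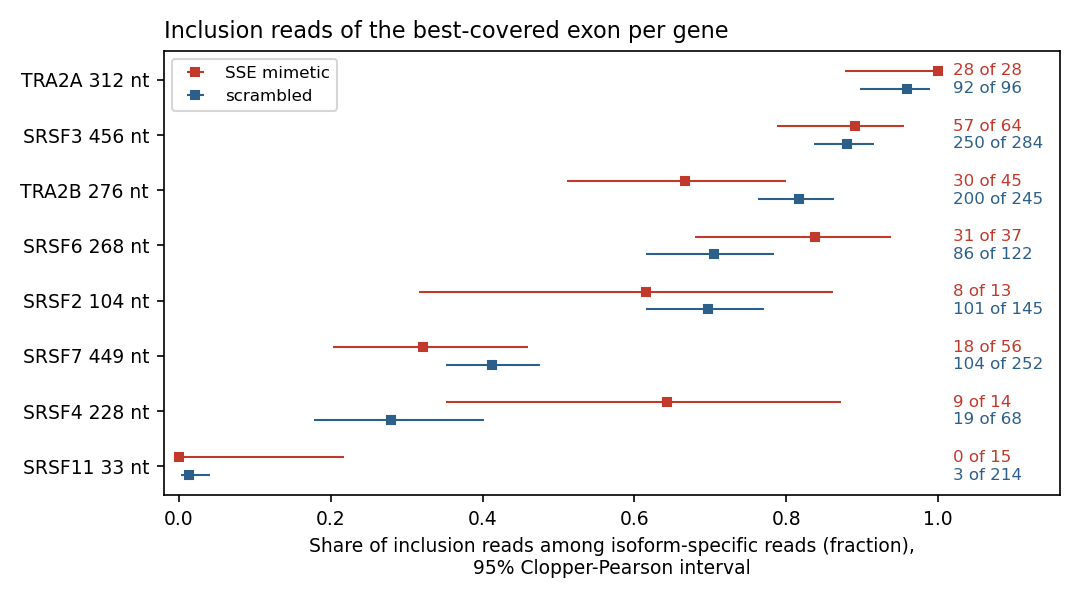
Inclusion reads as a share of the isoform-specific reads (x axis, fraction) for the best-covered decay or noncoding exon of each gene, with 95% Clopper-Pearson intervals and the read numbers at the right, SSE mimetic in red and scrambled in blue. The intervals of the 2 groups overlap for all 8 exons, SRSF6 at 0.838 against 0.705 among them.

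The 4 tested exons with coding sequence were mostly kept in both groups. The 189-nt exon of TRA2A (23512894 to 23513082) had a Ψ of 0.97 (0.88 to 1.00) in mimetic cells and 0.98 (0.94 to 1.00) in control cells. The 134-nt exon of TRA2B (185926601 to 185926734), which follows the decay exon, had 0.94 (0.82 to 0.99) and 0.95 (0.91 to 0.98). The 36-nt exon of SRSF7 (38746144 to 38746179) had 0.94 (0.79 to 1.00) and 0.93 (0.89 to 0.97), and the 90-nt exon of SRSF4 (29150103 to 29150192) had 0.88 (0.70 to 0.97) and 0.88 (0.79 to 0.96). These 4 exons differed by at most 0.01 in Ψ, and no Bayes factor among them exceeded 0.21.

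The other exons of coding transcripts, apart from the 301-nt form of TRA2A, had fewer than 10 isoform-specific reads in mimetic cells. The 90-nt exon of TRA2A lies in the untranslated region of coding transcripts. Its Ψ was low in control cells, at 0.09 (0.02 to 0.21), and 0.40 in mimetic cells, with a wide interval (0.14 to 0.73). This difference of 0.31 was the largest among the exons left untested, with a Bayes factor of 2.7, and it rested on 3 inclusion and 1 skipping reads against 3 and 16. With another downstream exon Ψ was 0.24 (0.03 to 0.69) and 0.08 (0.03 to 0.18). SRSF10 encodes an SR-like protein that represses splicing when it is dephosphorylated, and no decay or noncoding exon of it was among the events. Its coding exon on chromosome 1 (23971573 to 23971626, minus strand, 54 nt) had a Ψ of 0.83 (0.57 to 0.98) in mimetic cells and 0.98 (0.96 to 1.00) in control cells. It had 8 inclusion and no skipping reads against 211 and 2, and the Bayes factor was 0.54. A form 3 nt shorter had 0.77 (0.40 to 0.96) and 0.98 (0.96 to 1.00). The 60-nt exon of TRA2B (185919437 to 185919496) had 0.70 (0.31 to 0.94) and 0.97 (0.92 to 1.00) on 5 and 100 inclusion reads, and skipping reads were absent from both groups. Ψ of these SRSF10 forms and of the TRA2B exon was lower in mimetic cells, where each value rested on at most 8 isoform-specific reads. All of these were inclusion reads, so the lower Ψ cannot be read as a direction.

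In the control group the best-covered decay or noncoding exons fell into 3 levels of the authors' Ψ, before any subtraction of intron density. SRSF11, with its 33-nt exon of a noncoding transcript, was lowest at 0.01. SRSF7, SRSF3, SRSF4 and SRSF6 followed between 0.09 and 0.14, and each overlapped its neighbour in this order. SRSF2 at 0.43, TRA2B at 0.56 and TRA2A at 0.63 also overlapped their neighbours, and the intervals of SRSF6 and SRSF2 were apart. With the SSE mimetic every neighbouring pair overlapped, and SRSF6 (0.34) stood above SRSF2 (0.29) in the order. The steps below SRSF7 and between SRSF6 and SRSF2 were thus not resolved in the mimetic group. The place of SRSF2 beside TRA2B and TRA2A was not kept after subtraction of the intron density. Control Ψ was then 0.507 in TRA2B and 0.533 in TRA2A. It was 0.0272 in SRSF2, with 1 inclusion read left, and 0.00311 in SRSF6. Without subtraction, the TRA2A value was 0.42 in place of 0.63 with its other upstream exon. The decay exons of SRSF11 are not in this order. Their control Ψ was 0.51 (0.26 to 0.82) for 109 nt and 0.43 (0.26 to 0.64) for 117 nt. With other flanking exons it was 0.21 and 0.86, so the low place of SRSF11 holds for the 33-nt exon only.

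Exons of the 2 classes differed in read density relative to their introns. In each group, 8 of the 11 tested decay or noncoding exons of the SR genes had fewer inclusion reads per nt than their introns had reads fitting neither form. Over the whole series this held for 56.7% of such exons in mimetic cells and 55.5% in control cells. None of the 5 tested exons of coding transcripts in the SR genes was below its introns. Over the whole series 18.5% of the tested exons of coding transcripts were below in mimetic cells and 14.3% in control cells. With only 5 exons, a count of none is near that background. The ratios of these 5 exons ran from 1.59 to 8.30 in mimetic cells and from 1.91 to 15.6 in control cells. Inclusion reads include those across the junctions of the exon, so a short exon collects more of them per nt than a long one. The 5 exons had 36 to 301 nt and the 11 decay or noncoding exons 33 to 456 nt. Exon length was not allowed for in the ratios, so they do not compare the classes at equal length. The part of unspliced RNA in the Ψ values was not tested beyond the subtraction given for single exons.

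**Figure D4:**
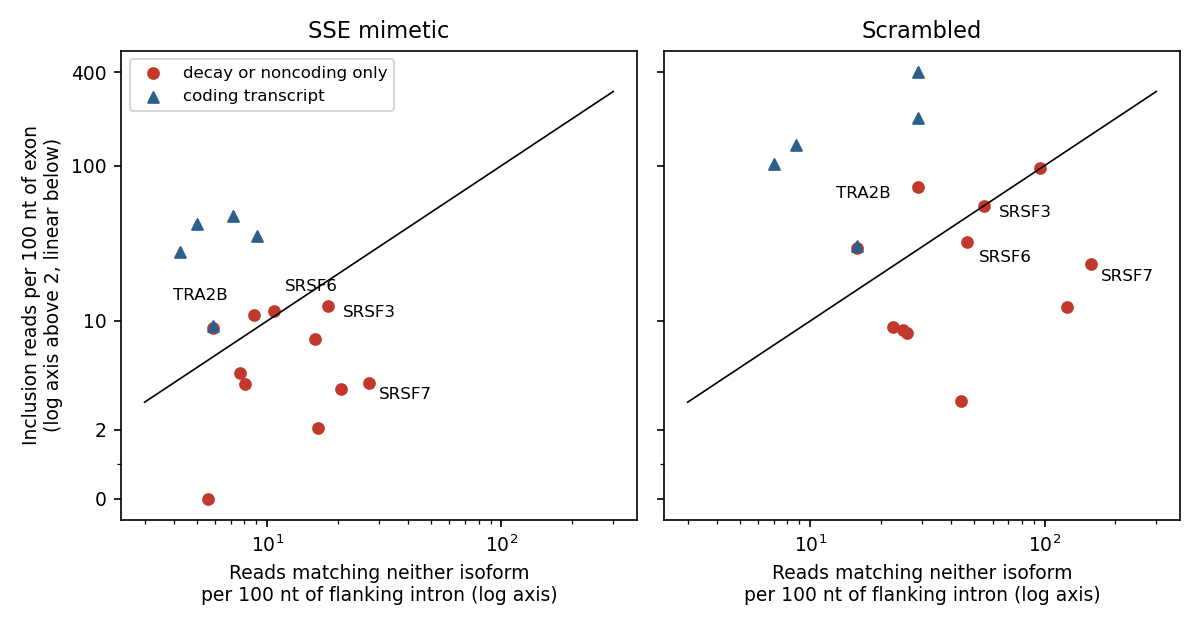
Inclusion reads per 100 nt of exon (y axis, log above 2 and linear below) against reads fitting neither form per 100 nt of flanking intron (x axis, log) for the 16 tested SR gene exons, in the mimetic group (left) and the control group (right); circles are decay or noncoding exons, triangles exons of coding transcripts, and the line marks equal density. The triangles lie above the line in both panels, and 8 of 11 circles lie below it in each.

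As a group, the 11 tested decay or noncoding exons, which occupy 9 places in the genome, had a median difference in Ψ of 0.04, with 8 above 0 and 3 below. For all 1956 tested exons of this class the median was 0.02, with 1119 above 0 and 758 below. The 5 tested exons of coding transcripts in the SR genes had a median of 0, and all 5973 such exons -0.05. Of the 16 tested SR gene exons, 5 were higher by at least 0.1 (background 14.9%) and 2 were lower by at least 0.1 (background 21.9%). The 5 are the exon of SRSF6 and the paired forms of SRSF4 and of TRA2A, so they come from 3 genes, and the 2 lower ones are in SRSF2 and TRA2B. Apart from SRSF6, no Bayes factor among the 16 exceeded 1.23. Fisher's exact test passed for 0 of 16 after adjustment over all exons (background 1.01%). At an unadjusted p under 0.05 it passed for 3 of 16 (background 5.51%), namely the SRSF4 forms, which were higher, and TRA2B, which was lower. These backgrounds include 4509 exons without a skipping read in either group, for which the test cannot pass, against 1 of the 16. The 3 passing exons are decay or noncoding exons, a class in which 213 of 1956 tested exons had such a p.

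**Figure D5:**
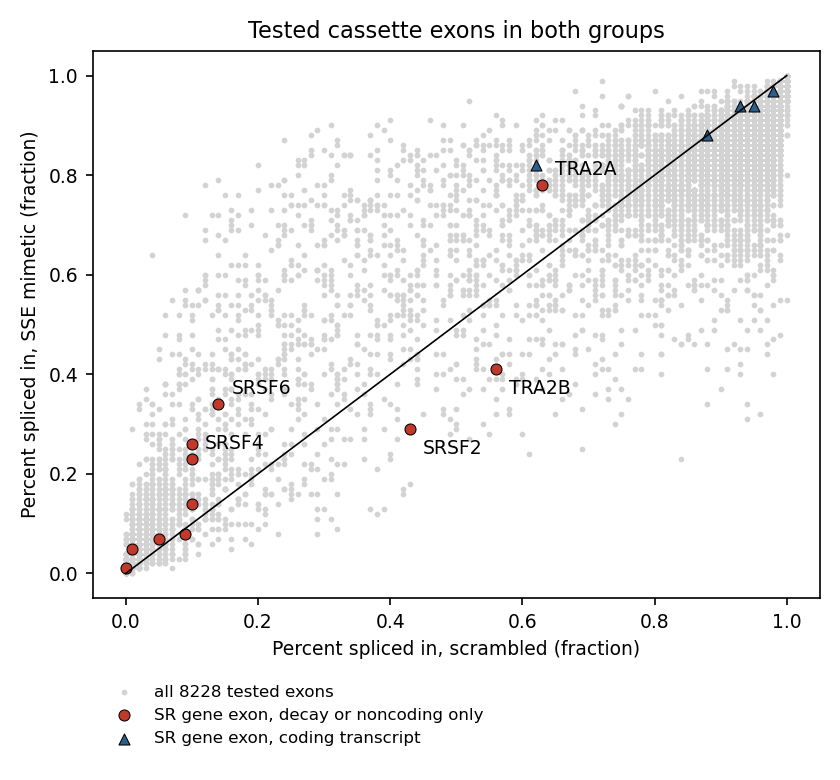
Ψ in mimetic cells (y axis, fraction) against Ψ in control cells (x axis, fraction) for all 8228 tested exons (grey) and the 16 tested SR gene exons (red circles, decay or noncoding; blue triangles, coding transcripts), with the line of equality. SRSF6 and SRSF4 lie above the line at low Ψ, and SRSF2 and TRA2B lie below it at middle Ψ.

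A wider group of SR and SR-related genes was read in the same way. In 33 such genes, with SRSF1, SRSF9, SRRM1 and the LUC7L family among those listed, 58 exons in 21 genes were tested. Calls were made for 4 exons that were higher in mimetic cells and 1 that was lower, beside backgrounds of 3.10% and 0.887%, and 53 had no call. The median difference was -0.005, against -0.03 over all tested exons. A decay exon of LUC7L3, which encodes a U1-associated protein with an RS domain, had a Ψ of 0.44 (0.19 to 0.81) against 0.07 (0.05 to 0.09). A coding exon of SCAF11 had 0.35 (0.25 to 0.47) against 0.11 (0.09 to 0.15), and a decay exon of BCLAF1 had 0.28 (0.16 to 0.44) against 0.05 (0.03 to 0.07).

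These 3 exons differ in how they stand against the introns. The SCAF11 exon (chromosome 12, 45974190 to 45975734) had 89 inclusion and 15 skipping reads against 103 and 68, with an adjusted Fisher's exact p of 0.00206, and was still called after subtraction of the intron density (difference 0.158). The BCLAF1 exon (chromosome 6, 136273963 to 136274189) had 15 and 8 against 27 and 131, with an adjusted p of 0.00145. The LUC7L3 exon (chromosome 17, 50737287 to 50737479) had 12 and 3 against 46 and 92, with an adjusted p of 0.0758. After subtraction, BCLAF1 and LUC7L3 differed by 0.0297 and 0.0657 and were not called. These 3 were taken from the called exons by size of the difference, so they too were chosen from these data. The other 2 called exons were named beyond that rule, once their values had been seen. A noncoding exon of RBM39 had a Ψ of 0.26 (0.19 to 0.35) against 0.07 (0.06 to 0.08). A coding exon of SON had 0.19 (0.16 to 0.24) against 0.30 (0.27 to 0.32), with 0 skipping reads in each group. After subtraction both were still called, with differences of 0.102 and -0.132.

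Genes that act on SR proteins or on their decay transcripts gave no call, beside a background of 3.99%, so with these few exons a count of 0 is near the background. Of 20 genes of nonsense-mediated decay and the exon junction complex, 9 had tested exons, and 0 of 23 exons were called, with a median difference of -0.05. Of 15 genes for kinases, phosphatases and import receptors of SR proteins, 9 had tested exons, and 0 of 17 exons were called, with a median of -0.02. In each list 0 exons passed Fisher's exact test once adjusted, and 1 had an unadjusted p below 0.05 (background 5.51%).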

How the data were processed

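Total RNA of 4 MDA-LM2 samples was sequenced from ScriptSeq v2 libraries, per the labels' protocols. Reads were aligned with STAR 2.7 to hg38, per the submitters' processing notes. The deposited tables are MISO skipped-exon summaries, 1 per group with its samples pooled, and 1 comparison, per the file headers and layout; the sources used here do not say how samples were pooled. The authors' Ψ is a fraction from 0 to 1, their Bayes factor a ratio, and their difference a score from -1 to 1 (SSE mimetic minus scrambled). Reads per class are deposited as text in other units.

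Of events sharing a skipped exon, that with the most isoform-specific reads was used. Fisher's exact test (scipy 1.17.1) was adjusted by Benjamini-Hochberg over 8228 tested exons. Ψ was also estimated anew from the authors' read numbers by a 2-isoform likelihood and a read length of 76 nt, the length nearest to the authors' values among 7 tried; its 95% intervals of differences are quoted as model intervals, and its code was tested on simulated data. Intervals cover counting error only. Named exons were every called one and, per gene, the best-covered decay or noncoding exon and the best-covered exon of a coding transcript. In each wider list up to 3 called exons were named, by size of the difference. The genes, lists and exons were chosen with earlier results of these data known. Alternatives changed the Bayes factor, difference and read limits, the choice of event and match, the measure, the test and the subtraction of intron reads.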

Additional observations from a re-analysis of the deposited data

How the results depend on the processing

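No paired analysis was possible because the deposited tables pool the samples of a group, and for the same reason no sample could be left out. The SRSF6 call held with the recomputed 2-isoform model. It also held with a difference of at least 0.2, a limit that its difference of 0.2 just reached. A minimum of 20 reads could not change the call, since the exon had 37 and 122 isoform-specific reads. Counting every event or exact matches only could not change it either, since SRSF6 has 1 event and it matches exactly. The setting with the inclusion share keeps the authors' Bayes factor. The call ended with a Bayes factor of at least 100, with Fisher's exact test and after subtraction of the intron density. Each of these left 0 SR gene exons called higher, and after subtraction 1 exon, in TRA2B, was called lower. Subtraction left no inclusion read in 8 of 11 tested decay or noncoding exons in each group, and it can remove too much where introns hold other spliced reads. Over all tested exons (255 higher and 73 lower), a Bayes factor of 100 gave 126 and 38, at least 20 reads gave 139 and 45, no minimum gave 430 and 214, and Fisher's test gave 67 and 0. Lower calls numbered 6 with the inclusion share and 133 after subtraction. Fisher's test passed for 47 in place of 83 without a read minimum. In the wider SR list, higher calls numbered 2 with Fisher's test and 2 after subtraction. Its lower calls numbered 0 with a difference of 0.2, with the inclusion share and with Fisher's test, 2 with the recomputed model and 3 after subtraction. The decay list had 1 higher call without a read minimum and 1 lower call with the model, before and after subtraction. The kinase list had 1 higher call without a minimum and 1 lower after subtraction. Causes were not tested. Among named exons without a call, SRSF4 moved to 0.363 and SRSF7 to -0.0913 with the inclusion share. The sign turned for SRSF11 with the inclusion share (-0.014). After subtraction it also turned for SRSF2 (0.0667) and for the long form of SRSF7 (0.005). In both exons at most 1 inclusion read was then left in a group, so these signs cannot be read as a direction. Tested SR gene exons had 13 to 79 isoform-specific reads in mimetic cells, and the model interval of most differences was wider than 0.1.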
